A study of Mus musculus with 20 samples.

Results

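The myelin genes of mature oligodendrocytes were followed as 9 genes chosen by name, Mbp, Mobp, Mal, Cldn11, Mag, Mog, Opalin, Cnp and Myrf, out of 19463 genes in the table, and all 9 were present and passed the filter on low values. Brains of Katnal2-knockout (KO) and wild-type (WT) mice of the C57BL/6J strain were taken whole at 3 weeks (P21) or 10 weeks (P70) of age for RNA sequencing. Each of the 4 groups held 5 mice. Katnal2 encodes a katanin-like ATPase that acts on microtubules. The KO line came from embryonic stem cells carrying the Katnal2tm1a(EUCOMM)Wtsi allele, followed by Flp mating and Cre treatment of early embryos with the cell-permeable enzyme HTNC, so the deletion is not limited to any cell type. Both genotypes shared the C57BL/6J background, and cages held littermates of both genotypes. The comparisons were KO against WT at each age, which asks whether loss of Katnal2 moves these genes, and P70 against P21 within each genotype. No label gives a library batch, so age cannot be told apart from a batch that may have differed between ages.

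Myelin is the multilayered membrane that oligodendrocytes wrap around axons in the central nervous system, where it speeds the conduction of impulses. Its synthesis is most intense in the first postnatal weeks of the mouse brain, when precursor cells differentiate and build sheaths, and it continues at a lower rate in the adult. The sheath is compacted by the cytoplasmic protein encoded by Mbp, sealed by the tight-junction protein encoded by Cldn11, and built under the transcription factor encoded by Myrf, which oligodendrocytes need to switch on and to keep up myelin genes. The RNA came from whole brain, so fewer oligodendrocytes and less RNA per oligodendrocyte cannot be told apart in any of the values below.

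Of the 9 genes 8 were lower at P70 in WT mice, and the sequence before the start sites was searched on both strands for 6 motifs. These were the core letters bound by the Myrf protein, CTGGCAC or CTGGTAC, the letters ACAAAG and the shorter ACAAT of Sox factors, the E-box CANNTG and the TATA box TATAAA. Promoter sequences from RefSeq (GRCm38.p6) were matched for 7 members, Mog, Mag, Mobp, Cnp, Mal, Cldn11 and Opalin, and the promoters of Mbp and Myrf were not analysed here. Within the 250 bases before a start site, CTGGTAC was found at Mog and CTGGCAC at Mag and Cnp, against 1.83% and 4.19% of 32817 promoters for these 2 cores. ACAAAG was found at Mag, Mobp, Cnp and Opalin, with 6 matches at Mobp, against 16.5% of promoters. The other 3 motifs were under their share among all promoters. CANNTG was found at Mag, Cnp and Opalin, 3 of 7 members against 66.2% of promoters. ACAAT and TATAAA were found at 0 of 7, against 27.7% and 12.4%. A member was counted if any of its start sites held the motif, and Mag had 3 start sites. The shares are per single promoter, so members and promoters were not counted alike. Windows of 120 bases are shown for the 3 genes that hold a Myrf core and for Mobp and Cldn11, which hold none. They run 5′ to 3′ on the strand of the gene and end at the last base before the annotated transcript, and capitals mark matches of the Myrf cores and ACAAAG on either strand. They lie at chr17:37023399-37023518 (Mog, minus strand), chr7:30914923-30915042 (Mag, minus strand), chr11:100574784-100574903 (Cnp, plus strand), chr9:120149587-120149706 (Mobp, plus strand) and chr3:31149800-31149919 (Cldn11, plus strand).
Mog: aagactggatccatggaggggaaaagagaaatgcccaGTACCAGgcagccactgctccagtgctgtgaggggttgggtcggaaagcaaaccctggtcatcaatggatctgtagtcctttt
Mag: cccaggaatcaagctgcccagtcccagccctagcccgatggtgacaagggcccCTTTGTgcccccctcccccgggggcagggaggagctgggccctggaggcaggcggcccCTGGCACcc
Cnp: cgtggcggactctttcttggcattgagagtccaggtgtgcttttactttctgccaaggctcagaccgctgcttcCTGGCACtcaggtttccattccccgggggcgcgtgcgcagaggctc
Mobp: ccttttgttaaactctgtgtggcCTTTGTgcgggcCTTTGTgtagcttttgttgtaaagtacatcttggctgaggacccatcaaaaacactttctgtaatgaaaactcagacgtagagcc
Cldn11: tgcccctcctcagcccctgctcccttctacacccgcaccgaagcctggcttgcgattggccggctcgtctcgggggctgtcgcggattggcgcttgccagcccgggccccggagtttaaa
The Myrf core begins 83 bases before the RefSeq start of Mog, 81 before that of Cnp and 9 before the more upstream start of Mag. These matches describe the letters of the window and were not tested as binding sites. None of the 6 motifs was found at Mal or Cldn11. Genes with a Myrf core and genes without one were both lower at P70, and a link between the motifs and the age differences was not tested.

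Values are read counts estimated by the authors, normalized for library size and transcript length, and a sum of 27310523 to 28423042 per mouse therefore does not show sequencing depth. The 9 genes together made up a median of 1.07% of all normalized read counts in P21 WT mice (0.97% to 1.13%) and 1.1% in P21 KO mice (0.981% to 1.49%). At P70 they made up 0.501% in WT mice (0.449% to 0.557%) and 0.448% in KO mice (0.4% to 0.584%), so no P70 mouse reached the lowest P21 mouse. Compared per kilobase of the longest coding transcript, Mbp was the most abundant at P21 in WT mice, at 36483 ± 2530 (SD, n = 5) normalized reads per kb, followed by Mobp at 14570 ± 767, Cnp at 9636 ± 598 and Cldn11 at 6390 ± 500. Mal, Mag and Mog followed at 5645 ± 265, 4942 ± 194 and 2980 ± 164, and Myrf and Opalin came last at 497 ± 47.3 and 444 ± 24.9. The ranges of Cldn11 and Mal overlapped, as did those of Myrf and Opalin, and the other neighbours in this order did not overlap. At P70 the order in WT mice was the same except that Mal stood above Cldn11, with overlapping ranges. Cldn11 then also overlapped Mag, and Opalin no longer overlapped Myrf, at 219 ± 35.5 against 448 ± 30.5 normalized reads per kb. With the union of exons as the length, Cldn11 came before Cnp and Mog before Mag at P21.

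**Figure D1:**
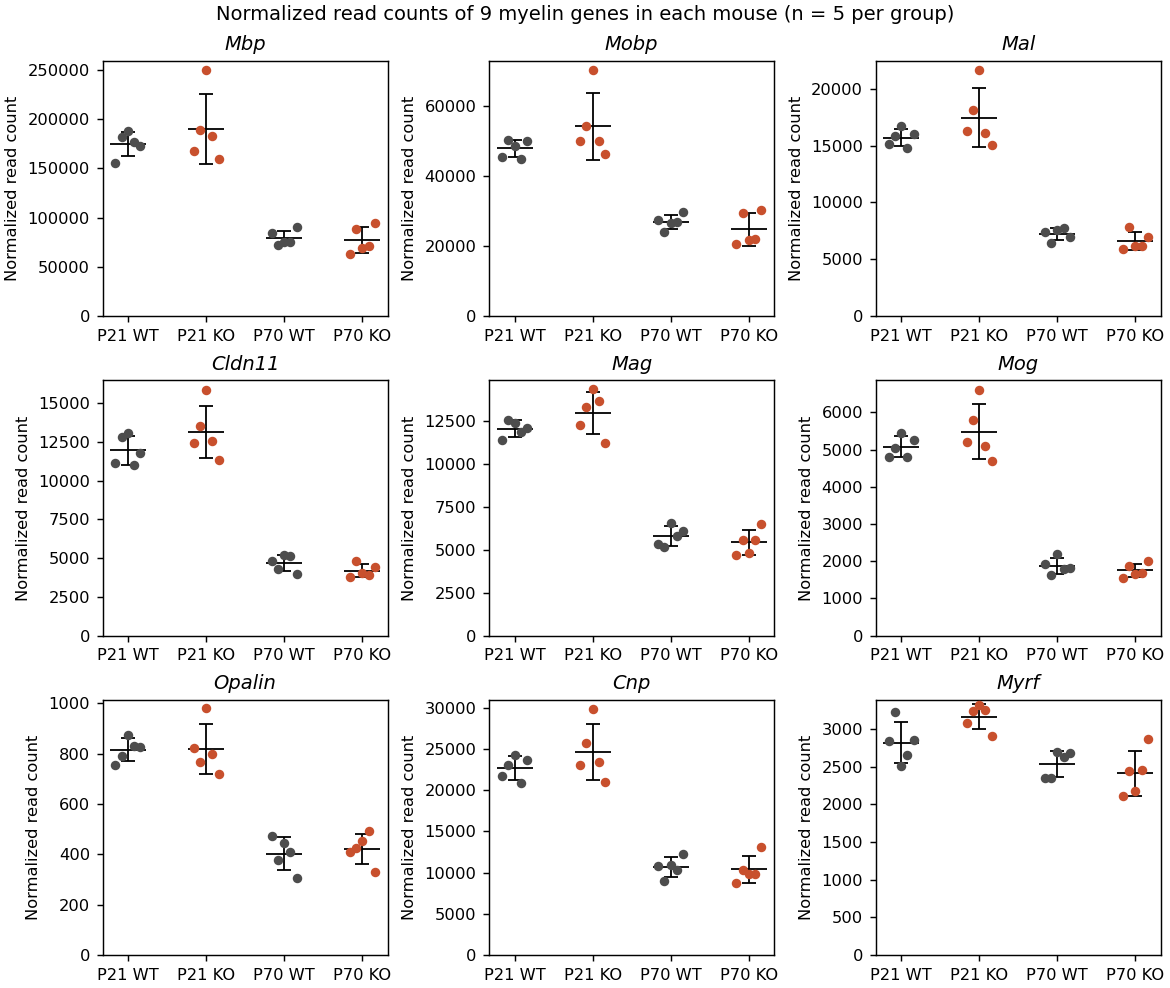
Normalized read counts of the 9 myelin genes in each mouse, with 1 panel per gene and 1 point per mouse (n = 5 per group, WT grey and KO red), the bar at the group mean and whiskers at 1 SD. For 8 genes every P70 mouse lies below every P21 mouse, and for Myrf the ages overlap in WT mice.

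In WT mice 8 of the 9 genes were lower at P70 than at P21 past an adjusted p of 0.05 in limma, a moderated linear model fitted over all genes, and in KO mice all 9 were. Of all 17630 genes tested in WT mice 4.7% were lower and 4.62% higher, and of 17641 tested in KO mice 4.53% were lower and 3.78% higher. The median log2 fold change of the 9 genes was -1.09 in WT and -1.26 in KO mice, against 0.00 and -0.01 over all genes tested. The 5 WT values at each age did not overlap for the same 8 genes, and the KO values did not overlap for 9. For each of these the exact two-sided permutation p over mice was 0.00794, the smallest that 5 against 5 mice can give. The share of all genes without overlap was not counted for any comparison, so counts of overlap are a description. Of all genes tested with age, 24.5% in WT and 22.7% in KO mice had an unadjusted limma p under 0.05.

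Mbp (ENSMUSG00000041607, chromosome 18, 82475146 to 82585637, plus strand, GRCm38) encodes myelin basic protein, which holds the cytoplasmic faces of the sheath together. Its normalized read counts, in order of replicate number, were 155662, 181656, 187691, 177043 and 173001 in P21 WT mice and 84208, 71952, 75392, 75429 and 89973 in P70 WT mice. In the knockout they were 167275, 189231, 249354, 183148 and 159293 in P21 KO mice and 63329, 88073, 69076, 70817 and 94730 in P70 KO mice. Every P70 mouse of either genotype stood below the lowest P21 mouse, and a single P21 KO mouse, replicate 3, stood above all others. The P70 mean was 2.21-fold lower in WT mice, a log2 fold change of -1.14 (SE 0.08, adjusted p = 1.48e-06), and 2.46-fold lower in KO mice, -1.29 (SE 0.14, adjusted p = 0.000168). Mobp (ENSMUSG00000032517, chromosome 9, 120149707 to 120181484, plus strand) encodes another small basic protein of compact central myelin. Its counts were 45486, 50365, 48687, 44933 and 49915 in P21 WT mice and 27393, 23930, 26592, 26835 and 29760 in P70 WT mice. The counts were 49891, 54266, 70315, 49889 and 46387 in P21 KO mice and 20562, 29315, 21649, 22130 and 30388 in P70 KO mice. The ages did not overlap, and the difference in WT mice, -0.83 (SE 0.07, adjusted p = 8.69e-06), was the smallest among the 8 genes past the threshold. In KO mice it was -1.13 (SE 0.14, adjusted p = 0.000401).

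Mal and Cldn11 encode membrane proteins that span the myelin bilayer. Mal (ENSMUSG00000027375, chromosome 2, 127633226 to 127656695, minus strand) encodes a proteolipid of lipid-rich membrane domains and had counts of 15110, 15820, 16678, 14822 and 15979 in P21 WT mice and 7440, 6468, 7605, 7721 and 6946 in P70 WT mice. Its KO counts were 16318, 18098, 21634, 16136 and 15057 in P21 KO mice and 5912, 7872, 6134, 6183 and 6969 in P70 KO mice. The P70 values were 2.17-fold lower in WT mice at a log2 fold change of -1.12 (SE 0.06, adjusted p = 4.64e-07), and 2.63-fold lower in KO mice at -1.40 (SE 0.11, adjusted p = 2.28e-05). Cldn11 (ENSMUSG00000037625, chromosome 3, 31149920 to 31164324, plus strand) encodes the claudin of the tight junctions between myelin layers. The counts were 11130, 12782, 13056, 11016 and 11766 in P21 WT mice and 4808, 4289, 5223, 5115 and 3954 in P70 WT mice. The counts were 12420, 13529, 15856, 12540 and 11352 in P21 KO mice and 3787, 4806, 4029, 3911 and 4406 in P70 KO mice. All P70 mice were below all P21 mice in both genotypes, and the log2 fold change was -1.36 (SE 0.09, adjusted p = 1.05e-06) in WT and -1.65 (SE 0.09, adjusted p = 3.2e-06) in KO mice.

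The cell surface members Mag, Mog and Opalin were also lower at P70. Mag (ENSMUSG00000036634, chromosome 7, 30899176 to 30914873, minus strand) encodes the adhesion molecule on the innermost layer that faces the axon. Its counts were 11345, 12560, 12339, 11820 and 12085 in P21 WT mice and 5304, 5148, 6548, 5800 and 6082 in P70 WT mice. In KO mice they were 12263, 13299, 14347, 13656 and 11205 in P21 KO mice and 4689, 5576, 4823, 5533 and 6512 in P70 KO mice. The log2 fold change was -1.06 (SE 0.07, adjusted p = 1.48e-06) in WT and -1.26 (SE 0.10, adjusted p = 2.36e-05) in KO mice, with no overlap between ages. Mog (ENSMUSG00000076439, chromosome 17, 37010743 to 37023398, minus strand) encodes an immunoglobulin-domain protein of the outermost layer, which appears late in sheath formation. Its counts were 4815, 5047, 5453, 4814 and 5257 in P21 WT mice and 1935, 1632, 2189, 1792 and 1822 in P70 WT mice. The counts were 5200, 5803, 6607, 5086 and 4707 in P21 KO mice and 1558, 1874, 1643, 1677 and 2010 in P70 KO mice. This was the largest age difference among the 9 genes in WT mice, 2.72-fold, with a log2 fold change of -1.44 (SE 0.08, adjusted p = 2.87e-07), and in KO mice it was -1.64 (SE 0.10, adjusted p = 4.65e-06). Opalin (ENSMUSG00000050121, chromosome 19, 41061710 to 41077113, minus strand) encodes a glycoprotein of oligodendrocytes of the central nervous system. Its counts were 753, 792, 876, 829 and 829 in P21 WT mice and 474, 379, 444, 409 and 305 in P70 WT mice. Its KO counts were 823, 766, 980, 798 and 718 in P21 KO mice and 408, 424, 451, 494 and 329 in P70 KO mice. In both genotypes the P70 mouse of replicate 5 was the lowest, and the ages did not overlap. The log2 fold change was -1.03 (SE 0.11, adjusted p = 8.81e-05) in WT and -0.96 (SE 0.12, adjusted p = 0.000416) in KO mice.

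Cnp (ENSMUSG00000006782, chromosome 11, 100574904 to 100591729, plus strand) encodes the phosphodiesterase of the cytoplasmic channels of myelin, which is present early in the lineage. Its counts were 21743, 23037, 24284, 20835 and 23666 in P21 WT mice and 10751, 9002, 10961, 10371 and 12321 in P70 WT mice. In KO mice they were 23015, 25692, 29922, 23455 and 21006 in P21 KO mice and 8782, 10284, 9835, 9834 and 13168 in P70 KO mice. The ages did not overlap, and the log2 fold change was -1.09 (SE 0.08, adjusted p = 3.72e-06) in WT and -1.25 (SE 0.11, adjusted p = 6.75e-05) in KO mice. The size of the difference in WT mice was close to that of the compact myelin gene Mbp, with 95% intervals of -1.26 to -0.92 for Cnp and -1.31 to -0.98 for Mbp.

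**Figure D2:**
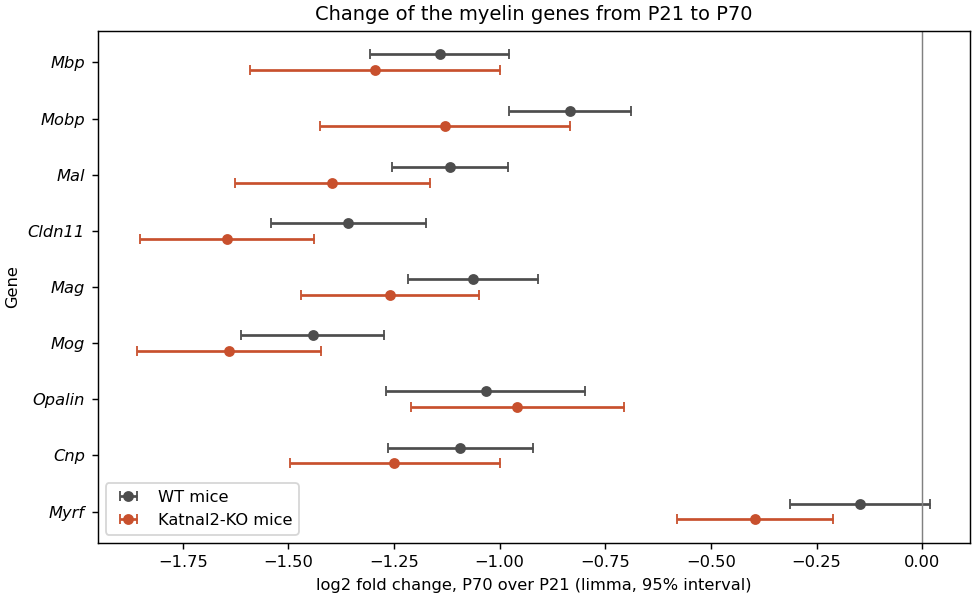
Log2 fold change of P70 over P21 for the 9 myelin genes in WT (grey) and KO (red) mice, with 95% intervals from limma (5 mice at each age). In WT mice 8 genes lie between -1.44 and -0.83, while Myrf lies at -0.15 with an interval that includes 0.

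Myrf (ENSMUSG00000036098, chromosome 19, 10208272 to 10240748, minus strand), the regulator, had the smallest difference with age among the 9 genes in each genotype. Its normalized read counts were 2849, 3228, 2514, 2659 and 2853 in P21 WT mice and 2356, 2354, 2696, 2628 and 2679 in P70 WT mice. In KO mice they were 3078, 3241, 3321, 3260 and 2912 in P21 KO mice and 2108, 2446, 2184, 2460 and 2874 in P70 KO mice. The WT ages overlapped, with a log2 fold change of -0.15 (SE 0.08, 95% interval -0.31 to 0.02), an adjusted p of 0.264 and an exact permutation p of 0.0873. In KO mice the ages did not overlap, and the log2 fold change was -0.40 (SE 0.08, adjusted p = 0.0128). A block on replicate number gave an adjusted p of 0.0501 for this difference. The log2 age change of Myrf in KO less that in WT mice was -0.25 (95% interval -0.49 to -0.01), with an adjusted p of 1 in limma.

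The ratio of each gene to Myrf within the same mouse was lower at P70 for all 8 other genes in both genotypes. A scaling factor shared by all genes of a mouse cancels in such a ratio, but the normalization per gene does not. For Mbp the median ratio was 60.6 in P21 WT mice (54.6 to 74.6) and 30.5 in P70 WT mice (28 to 35.7). In KO mice it was 56.2 at P21 (54.3 to 75.1) and 31.6 at P70 (28.8 to 36). For Mag the ratio went from 4.23 (3.89 to 4.91) to 2.25 (2.19 to 2.43) in WT mice and from 4.1 (3.85 to 4.32) to 2.25 (2.21 to 2.28) in KO mice. None of the 8 ratios overlapped between ages in either genotype. Myrf, with the smallest age difference of the 9, was taken as the denominator with that difference known, so these ratios are a description without a test. The same holds for ratios between sheath genes, whose pairs were picked with their age differences known, Mog and Cldn11 having the largest among the 9 in WT mice and Mobp the smallest of the 8 past the threshold. The ratio of Mog to Mobp had a median of 0.106 at P21 and 0.0682 at P70 in WT mice, and that of Cldn11 to Mobp 0.245 and 0.179, again without overlap. The ratio of Opalin to Cnp overlapped between ages in WT mice, with medians of 0.0351 and 0.0406. At a given age no ratio to Myrf separated KO from WT mice, with exact permutation p-values of 0.159 or more.

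The other genes of the lineage put these differences in context. Among 24 other proteins of the sheath, 12 were lower and 2 higher at P70 in WT mice (median log2 fold change -0.36), and 10 were lower and none higher in KO mice. Gsn, which encodes the actin-severing protein gelsolin, was lower by a log2 fold change of -1.50 (SE 0.07, adjusted p = 1.38e-07), and Tmem63a, an ion channel gene, was higher by 0.35 (SE 0.07, adjusted p = 0.00899). Of 12 enzymes and carriers of myelin lipids, 10 were lower and 1 higher in WT mice, among them the fatty acid hydroxylase gene Fa2h at -1.03 (SE 0.07, adjusted p = 3.42e-06) and the glycolipid carrier gene Gltp at -0.84 (SE 0.07, adjusted p = 1.64e-05). The 1 that was higher was Ptgds, which encodes prostaglandin D synthase and is also expressed outside oligodendrocytes, at 0.74 (SE 0.19, adjusted p = 0.0271). In KO mice 10 of these 12 were lower and none higher.

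Regulators of the lineage other than Myrf were split, with 5 of 13 lower and none higher in WT mice and the same counts in KO mice. Zfp488, a zinc finger factor gene of oligodendrocyte differentiation, was at -1.22 (SE 0.13, adjusted p = 8.67e-05) in WT mice and Olig1, a basic helix-loop-helix factor gene of the lineage, at -0.62 (SE 0.08, adjusted p = 0.000312). Markers of precursors and newly formed oligodendrocytes were lower for 9 of 14 genes in each genotype, with none higher and medians of -0.52 and -0.60. Gpr17, a receptor gene of cells about to myelinate, was at -1.22 (SE 0.11, adjusted p = 2.79e-05) in WT mice, and Itpr2, an early differentiation marker, at -0.52 (SE 0.10, adjusted p = 0.00679). Enpp6, a gene of newly formed oligodendrocytes, had the lowest value of this list at -1.47 (SE 0.16, adjusted p = 9.74e-05).

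Markers of mature oligodendrocytes outside the 9 genes did not move as a block with age. Of 17 such markers 4 were higher and 4 lower in WT mice, with a median of -0.11, and in KO mice 1 was higher and 4 were lower. Il33, a cytokine gene, had 287, 317, 328, 224 and 360 in P21 WT mice and 1376, 1194, 1337, 1091 and 1117 in P70 WT mice, with every P70 mouse above every P21 mouse and a log2 fold change of 2.02 (SE 0.12, adjusted p = 6.44e-07). The counts of these markers summed to a median of 44117 at P21 (41637 to 47989) and 45461 at P70 (42636 to 50179) in WT mice, which overlap. The 9 myelin genes summed to 295351 (268894 to 311579) and 137650 (125153 to 153842). The marker sum weighs its most abundant genes most, Enpp2 (WT means of 12335 at P21, 10945 at P70) and Trf (9380, 8677). Whether the markers are expressed in oligodendrocytes alone was not tested, so their sum does not measure the content of mature oligodendrocytes.

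Other cell types were read in the same WT mice. None of 10 astrocyte markers and none of 10 microglia markers passed the threshold between ages in limma, with 1 of each at an unadjusted p under 0.05. Among 10 neuron markers Snap25 was higher (0.25) and Slc17a7 and Stmn2 were lower (-0.19 and -0.35). Of 8 endothelial markers Slco1a4 and Kdr were lower, at -0.70 and -1.32. Among 14 partners of the sheath at the node and paranode Nfasc, a cell adhesion gene used by both axon and glia, was lower at -0.59 (SE 0.12, adjusted p = 0.0076). Of 8 genes of the Nogo receptor pathway, through which the Mag protein can act on neurons, the receptor genes Rtn4rl1 and Rtn4rl2 were higher at 0.38 and 0.42.

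**Figure D3:**
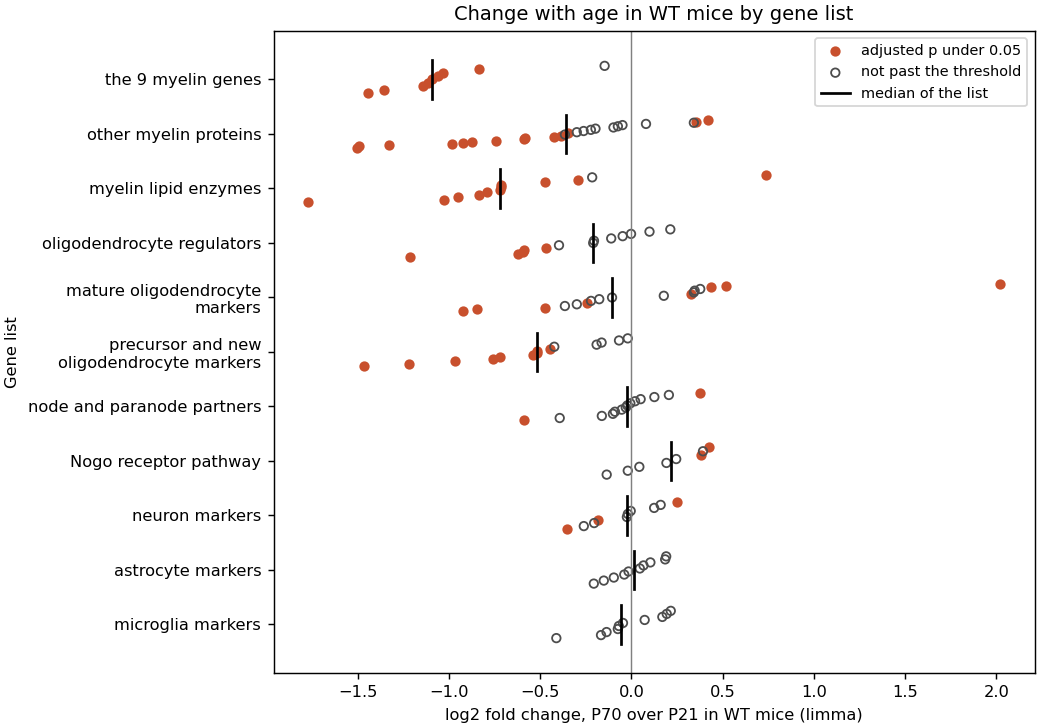
Log2 fold change of P70 over P21 in WT mice (x axis) for every tested gene of 11 lists, 1 point per gene, filled where the adjusted p was under 0.05, with a bar at the median of the list. The 9 myelin genes have a median of -1.09 and the lipid enzymes -0.72, while the mature markers outside the 9 have a median of -0.11 and reach 2.02 for Il33.

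The targeted gene was measured in every mouse. Katnal2 had 96, 94, 78.1, 81 and 95.9 normalized reads in P21 KO and 113, 100, 115, 99.3 and 108 in P21 WT mice, which did not overlap, and 104, 95.1, 100, 100 and 126 in P70 KO and 110, 142, 101, 125 and 132 in P70 WT mice, which did. The log2 fold change was -0.27 at P21 and -0.21 at P70, with an adjusted p of 1 at each age, and a value for the whole gene does not resolve the deleted exon, so it is no full check of the genotype.

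Between genotypes no myelin gene passed the threshold at either age. At P21 the log2 fold change of KO over WT was above 0 for 8 of the 9 genes, with a median of 0.11 against 0.00 over all 17610 genes tested, and ran from -0.00 for Opalin to 0.17 for Myrf. Limma called 0% of all genes at an adjusted p under 0.05 and 2.44% at an unadjusted p under 0.05, and 1 of the 9 genes, Myrf, was among the latter. Myrf had a mean of 3162 ± 166 in KO and 2821 ± 268 in WT mice (SD, n = 5 in each group), which gave a log2 difference of 0.17 (SE 0.06, 95% interval 0.03 to 0.31, unadjusted limma p = 0.0209, adjusted p = 1), and overlapping values (exact permutation p = 0.0397). Mobp was next at 0.16 (-0.04 to 0.36), with means of 54150 ± 9459 and 47877 ± 2519, and then Mal at 0.14 (-0.03 to 0.32). For Mbp the interval was -0.12 to 0.32 and for Opalin -0.17 to 0.16.

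No gene of the other lists passed either. At P21 the log2 fold change was above 0 for 23 of 24 other sheath proteins (median 0.10), 12 of 12 lipid enzymes (0.07) and 17 of 17 mature markers (0.18), with 3, 0 and 4 genes at an unadjusted p under 0.05. Among those 7 genes Tmem63a had the largest value, 0.33 (SE 0.09), with an adjusted p of 1 in limma. Of 14 precursor and newly formed oligodendrocyte markers 8 were above 0, and of 10 astrocyte markers 7 (medians 0.04 and 0.02).

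At P70 the sign was the other way for 8 of the 9 genes, with a median of -0.09 against 0.00 over 17613 genes, and again none passed. Cldn11 had the lowest value at -0.16 (-0.37 to 0.05), with means of 4188 ± 416 in KO and 4678 ± 543 in WT mice, followed by Mal at -0.13 (-0.33 to 0.06) and Mobp at -0.13 (-0.39 to 0.12). Opalin was at 0.07 (-0.23 to 0.37). Among all genes 0% passed the adjusted threshold and 1.13% had an unadjusted p under 0.05, none of the 9 among them, and the values of KO and WT mice overlapped for all 9 genes at both ages. Of the other sheath proteins 17 of 24 were above 0 at P70 (median 0.02), as were 12 of 17 mature markers (median 0.04).

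The test of whether the age change differed between genotypes used all 20 mice. The log2 difference of the 2 age changes was below 0 for 8 of the 9 genes, with a median of -0.20 against -0.01 over 17637 genes. None passed the adjusted threshold, where 0% of all genes did, and 3 had an unadjusted limma p under 0.05, against 1.68% of all genes. These were Mal at -0.28 (-0.54 to -0.02, unadjusted p = 0.0389), Cldn11 at -0.29 (-0.56 to -0.01, unadjusted p = 0.0397) and Myrf at -0.25 (unadjusted p = 0.0402), each with an adjusted p of 1 in limma. Mobp had the lowest value, -0.30, with a 95% interval of -0.62 to 0.03. The interaction uses the same mice as the comparisons at each age and is not separate evidence on them.

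**Figure D4:**
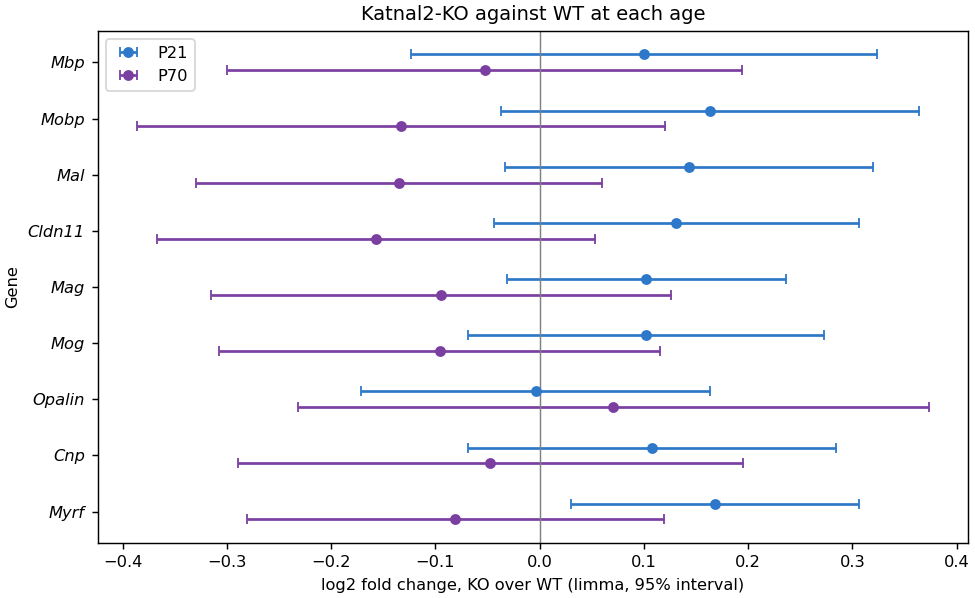
Log2 fold change of KO over WT for the 9 myelin genes at P21 (blue) and P70 (purple), with 95% intervals from limma (5 mice per genotype). At P21 8 of 9 points lie above 0 and at P70 8 of 9 lie below, and all intervals include 0 except that of Myrf at P21.

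The genotype differences rested in part on single mice. The P21 KO mouse of replicate 3 was the highest of its group for all 9 genes, with a mean deviation of 0.28 on the log2 scale from its group, and that of replicate 5 was the lowest for all 9, with -0.20. Without replicate 3 the P21 difference was -0.00 for Mbp, 0.03 for Mog, 0.03 for Cnp, 0.06 for each of Mag, Mal and Cldn11, 0.07 for Mobp, 0.15 for Myrf and -0.07 for Opalin. The same mouse had the highest sum of 13 hindbrain Hox genes, which mark hindbrain and spinal cord tissue. In replicate order the Hox sums were 471, 158, 717, 306 and 281 normalized reads for the P21 KO mice and 40.4, 310, 93, 393 and 252 for the P21 WT mice. Replicate 5 of the P21 KO group, the lowest for the myelin genes, had 281, below the 306 of replicate 4 and above the 158 of replicate 2. The log2 fold change of KO over WT at P21 was above 0 for 12 of 12 Hox genes tested, with a median of 0.81. None was past the adjusted threshold, and 4 of 6 Schwann cell markers were above 0. Some Hox genes passed the filter only through the higher KO group, such as Hoxa2 (means of 9.72 in WT, 16.3 in KO) and Hoxb8 (9.59, 36.9). Hoxd4, which did not enter, was also higher in KO mice (5.67, 8.07). The filter favours such a direction, so this count and median are a description. The part of this difference in tissue content in the values of the 9 genes was not tested.

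At P70 the sums of the Hox genes were 52.7, 33, 201, 163 and 376 for the KO mice and 49.4, 234, 91.8, 127 and 228 for the WT mice. Between P21 and P70 in KO mice all 12 Hox genes tested had a log2 fold change below 0, with a median of -1.47. None was past the threshold and 5 were at an unadjusted limma p under 0.05. In WT mice all 6 tested were below 0, with a median of -0.53 and none at an unadjusted p under 0.05. Some entered in KO mice only through the higher P21 group, such as Hoxa2 (means of 16.3 at P21, 6.07 at P70) and Hoxb8 (36.9, 2.78). The filter thus favours a negative sign, and the 12 and 6 genes are not the same set, so their medians cannot be compared. Of 6 Schwann cell markers tested none passed in WT mice, and in KO mice Prx and Cdh19 were lower and Egr2, a gene that active neurons also express, was higher. The part of this in the age difference of the myelin genes was not tested. The P21 WT mouse with the lowest Hox sum, 40.4 in replicate 1, had 155662 normalized reads of Mbp. The highest P70 mouse for Mbp, the KO mouse of replicate 5, had 94730 and a Hox sum of 376. These single mice were picked by their values and are given for Mbp alone, so they do not test the part of tissue content.

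The P70 mice of replicate 5 stood apart from their groups, with a mean correlation to the other mice of 0.9681 in KO and 0.9755 in WT, against 0.9796 or more for the other P70 mice. The KO mouse of that number was the highest of its group for Mbp, Mobp, Mag, Mog, Cnp and Myrf and the lowest for Opalin. In WT mice it was the highest for Mbp, Mobp and Cnp and the lowest for Cldn11 and Opalin. Without it the log2 age difference in WT mice was -1.19 for Mbp, -1.43 for Mog, -1.30 for Cldn11, -0.94 for Opalin and -0.17 for Myrf, and 8 of 9 genes were again past the threshold, while the count over all genes went from 1643 to 3000. In KO mice without it Mbp was at -1.37, Mog at -1.69, Cldn11 at -1.67, Opalin at -0.87 and Myrf at -0.46, all 9 past the threshold, and the count over all genes went from 1467 to 3759.

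**Figure D5:**
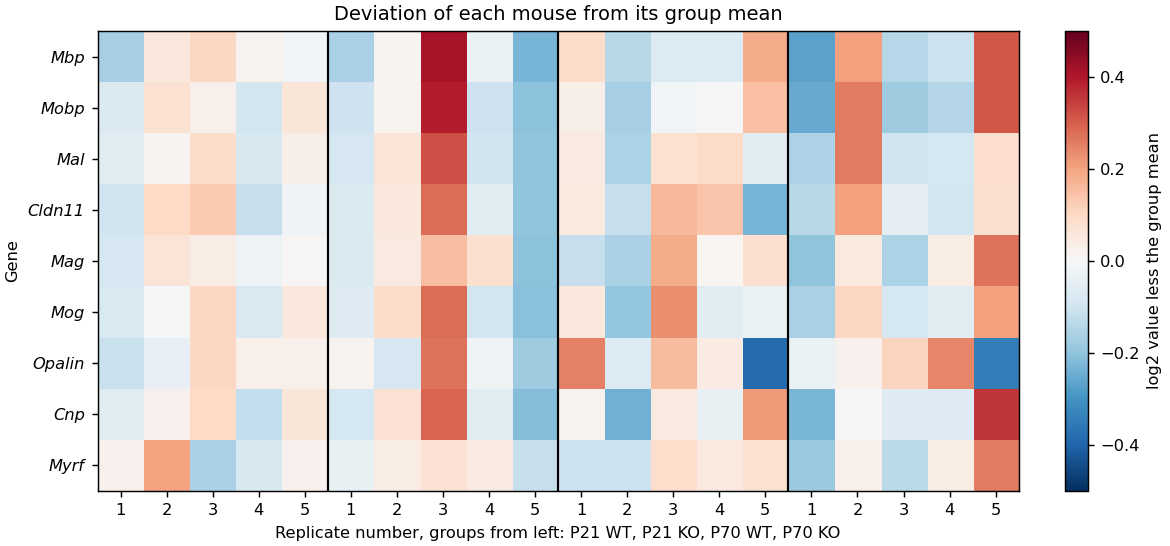
Log2 normalized read count of each myelin gene in each mouse less the mean of its group, in colour (red above and blue below the mean), with 20 mice in columns and genes in rows. The P21 KO column of replicate 3 is red for all 9 genes and that of replicate 5 blue for all 9, and both P70 columns of replicate 5 are blue for Opalin.

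Among mice of the same group most of the 9 genes varied together, Opalin the least. Over 20 mice, each less its group mean, the Pearson r of the 36 pairs had a median of 0.667 and ran from -0.301 to 0.948, the highest being that of Mbp with Mobp. These values share the libraries and their scaling and are a description. Against the mean of the other 8 genes Mog stood at 0.922, Mal at 0.904 and Mobp at 0.889, whereas Myrf stood at 0.563 and Opalin at 0.0608. Opalin followed the others at P21 (r = 0.812 over 10 mice) and not at P70 (r = -0.334), and without the P70 mice of replicate 5 it stood at 0.517. Among 12798 genes with a mean of at least 100, those outside the 9 whose pattern was most like their mean were Olig1 (r = 0.925, Spearman's rho = 0.914), Fibin (0.879 and 0.842), Rab31 (0.852 and 0.866), Gsn (0.85 and 0.761) and Mro (0.847 and 0.844), over the same 20 mice.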

How the data were processed

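Whole-brain RNA of 20 mice was measured, 5 in each of the P21 KO, P21 WT, P70 KO and P70 WT groups. Groups and replicate numbers were taken from the sample titles. The authors made the deposited signal values, read counts normalized per gene and mouse, from poly-A RNA with Salmon (GRCm38, corrected for GC bias), tximport and DESeq2. The submitters' processing notes name Salmon 1.1.0, DESeq2 1.26.0 and R 3.6.2, while the study's methods give other versions of R and DESeq2, so the versions behind the values are uncertain. Whole reads are not recoverable from these values, so counting error and depth are unknown and a count model was not used. The table holds 19463 genes, of which 19447 matched a symbol in GENCODE M21, and no column was left unmapped. Splice forms of a gene, of which Mbp has many, are summed.

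Each comparison was fitted by limma 3.58.1 in R 4.3.3 (lmFit and trended eBayes). Genes whose mean in the fitted mice was 10 or more entered, their values were taken as log2 after adding 1, and Benjamini-Hochberg adjustment ran over all of them at a threshold of 0.05. The added 1 understates changes of low genes. Group means are given with SD. Single values were also tested by exact two-sided permutation over mice (Python 3.11.15, scipy 1.17.1). The members and gene lists were chosen with earlier results of these data known, so no test was made over a list. Named genes were the 9 members, Katnal2, from each list the 2 genes with the smallest p with age in WT mice and the 1 with the smallest p at P21, and the 5 genes most like the members; only some of them are given in the text. Apod, Ptgds, Slc17a7, Prx and Cdh19 fall outside this rule and were named after their values were seen. Lists were described by counts and medians. Promoter sequences came from RefSeq (GRCm38.p6) and gene positions from GENCODE M21. The alternatives tried were limma without the trend, 3 scalings, 2 filters, a pseudocount of 5, a single fit of all mice, the replicate block and each mouse left out. Some genes of the lists, also where the rule names them, are not reported here. The limma step was tested on simulated data.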

Additional observations from a re-analysis of the deposited data

Results flagged for a closer look

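The check for a mouse far from the rest took 60 groups of 5 mice, covering the 9 myelin genes and 6 other genes given by mouse. Of these groups 2 held one, and neither was a group of the 9 myelin genes. Chance alone marks about 1 in 20 groups of genes chosen beforehand. Both groups were of genes named after their values were seen, Ptgds and Apod, so the count cannot be set against that rate. Ptgds had 43064 normalized reads in the P70 KO mouse of replicate 5, against 26660 in the next highest of that group, and Apod, a mature oligodendrocyte marker, had 7729 in the P70 WT mouse of replicate 5, against 5306.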

How the results depend on the processing

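Every age difference of the 9 genes kept its direction under all 19 alternatives in each genotype, and 8 of 9 genes in WT and 8 or 9 in KO mice stayed past the threshold. The exception was Myrf in KO mice, with an adjusted p of 0.0501 under the replicate block. Over all genes, the block gave 913 genes past the threshold with age in KO mice, against 1467, and leaving out 1 mouse gave 896 to 3759 in KO and 912 to 3000 in WT mice, against 1643. The highest count came without replicate 5 at P70 in each genotype. Between genotypes leaving out 1 mouse gave 0 to 1 genes at P21 and 0 to 0 at P70, and 1 at P70 without both replicate 5 mice, an alternative chosen after seeing the data. No member passed in any of these. Log2 differences whose direction turned with 1 mouse left out were those of Opalin (-0.071 to 0.041) and Mbp (-0.0028 to 0.16) at P21, of Mbp (-0.13 to 0.015), Cnp (-0.14 to 0.0096) and Opalin (-0.025 to 0.16) at P70, and of Opalin in the difference of age changes (-0.021 to 0.16). The cause was not tested. Same-numbered mice did not all deviate together, with correlations between KO and WT deviations of -0.00913 to 0.26 at P21. At P70 the correlation was 0.705 for the mice of replicate 5, which stood apart from their groups, and 0.0749 to 0.175 for the others. The numbers were therefore not taken to pair the mice, and what the replicate 5 mice share was not tested. The alternative of exon union as the length is given with the levels. With 5 mice a group, the 95% intervals of the genotype differences of the 9 genes reached -0.39 and 0.37.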
